A study of Mus musculus with 148 samples.

Results

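The genes described here code for 5 proteins that store, release or move iron in myeloid cells. They are Fth1 and Ftl1, the heavy and light chains of ferritin, Hmox1, which codes for heme oxygenase 1, Slc40a1, which codes for the iron exporter ferroportin, and Slc11a1, which codes for a metal transporter of the phagosome membrane (NRAMP1). The members were listed by symbol and are 5 of the 52634 gene rows of the count files. They were chosen with their levels by subpopulation and tissue already known, so those levels are given as a description, and no test below counts as independent evidence for the choice.

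The study followed immune cells through the spread of breast cancer to the lung in PA-GFP mice on the C57BL/6 background, which carry a photoactivatable green fluorescent protein. Control samples (3) were lungs with the status Normal. Control, Pre-MET and relapse-free samples were whole lungs, and distal normal and metastasis samples were lung sections. The other mice, all female, received EO771-tdTomato cells, a single mouse breast cancer line marked with a red fluorescent protein, in a mammary gland at 8 weeks of age. Primary tumors (4 samples) were taken from tumor-bearing mice, and Pre-MET lungs (3 samples) came from such mice before the tumor was removed, so that 3 mice gave both tissues. In the remaining mice the tumor was resected 3 weeks after injection, and the lungs were followed by CT. Lungs that stayed free of metastases were relapse-free (6 samples). Lungs with metastases gave distal normal tissue without a visible lesion (14 samples), metastasis tissue (13 samples) and photoactivated cells from the metastasis core (13 samples) or the invasive margin (7 samples), often from the same mouse. Distal normal and metastasis cells were sorted as CD31- CD45+, whereas most core and margin cells were sorted as CD31- cells with activated GFP. Control and Pre-MET cells were CD31- CD45+, while some plates of relapse-free mice 6 and 7 held CD31- cells with activated GFP or CD31- CD45+ cells without it. Thus tissue and gate changed together in comparisons of the core with the primary tumor. Single cells were sequenced on plates with unique molecular identifiers (UMIs), and the deposited cell annotation was used as given.

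The 63 samples from 27 mice held 24020 annotated cells, of which 12071 were myeloid: 6308 monocytes, 1791 macrophages and 3972 neutrophils in 13 subpopulations. A sample had between 55 and 1974 cells and between 48306 and 2745794 UMIs. UMIs were summed per mouse, tissue and subpopulation where at least 10 cells were present, which gave 261 sums of 5720 to 731354 UMIs, and a level is given as CPM, the UMIs of a gene scaled to the same total in every sum. The marker genes went with most labels, with exceptions. Macrophage markers had a median of 1756 CPM in Mac_Cd9, below Mon_Ace (2666) and Mon_MHC-II (2755), and alveolar macrophage markers had 2534 CPM in Mon_Fn1. Neutrophil markers had a median of 20281 CPM in Neut_PMN-MDSC and of 96225 CPM or more in the other neutrophil subpopulations. Erythroid markers averaged 1147 CPM in Neut_PMN-MDSC, with a median of 94.1. The summed macrophage markers had a median of 17349 CPM in Mac_Gpnmb, 25112 in Mac_Cd81 and 4112 in Mac_Isg20, and the alveolar macrophage markers a median of 17179 CPM in Mac_Cd9 against 298 or less in the other macrophage subpopulations.

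As background, iron that reaches a cell is either used, stored in the ferritin shell built from heavy and light chains, or passed out of the cell through ferroportin. Macrophages recycle the iron of red blood cells: heme oxygenase 1 opens the heme ring and frees its iron. Translation of both ferritin chains and of ferroportin is held back by iron regulatory proteins when iron is low. These proteins bind a hairpin near the start of the mRNA, the iron-responsive element, so the mRNA level of these genes is not a measure of their protein.

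The iron-responsive elements are shown because they set the 3 members under this control apart from the other two. In the GRCm38 annotation (GENCODE transcripts) Fth1 lies on chromosome 19 (chr19:9980598-9985098, plus strand), Ftl1 on chromosome 7 (chr7:45457944-45459884, minus strand), Hmox1 on chromosome 8 (chr8:75093621-75100589, plus strand), Slc40a1 on chromosome 1 (chr1:45908068-45926523, minus strand) and Slc11a1 on the same chromosome (chr1:74375195-74386062, plus strand). The sequences below lie in exons, in the 5′ untranslated region, and are written 5′ to 3′ on the strand of the mRNA, with the loop (CAGTGN, where N is any base) in capitals. Positions count from the first base of the transcript.
Fth1, bases 87 to 116 of Fth1-201: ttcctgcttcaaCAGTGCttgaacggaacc
Ftl1, bases 78 to 107 of Ftl1-201: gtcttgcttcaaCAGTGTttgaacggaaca
Slc40a1, bases 90 to 119 of Slc40a1-201: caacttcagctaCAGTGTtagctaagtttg

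In each of these windows 5 bases before the loop pair with 5 bases after it, and an unpaired C stands before the upper stem. A match of this kind on the transcript strand was present in 31 of the 20580 mouse genes with an annotated 5′ untranslated region (0.151%), while the letters CAGTG alone were present in 34.3%. Hmox1 had the letters CAGTG in its 129-base 5′ untranslated region but no such hairpin, and Slc11a1 had no CAGTG in its 112 bases. A match describes these letters only. No data in this series show whether a protein was bound.

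Levels of the ferritin chains followed the subpopulation. Among macrophages, Fth1 was 30001 CPM ± 7641 (SD, n = 14 sums) in Mac_Gpnmb and 24891 ± 7084 (n = 15) in Mac_Isg20, against 13031 ± 4805 (n = 9) in Mac_Cd81 and 12586 ± 2411 (n = 11) in Mac_Cd9. The upper and lower pair each overlapped within 1 SD. Ftl1 had the same division, with 40225 CPM ± 9896 in Mac_Gpnmb, 35421 ± 9933 in Mac_Isg20, 15415 ± 2914 in Mac_Cd9 and 12378 ± 3963 in Mac_Cd81. In Mac_Gpnmb the lowest Ftl1 sum was 27344 CPM and the highest 56200, all above the highest Mac_Cd9 sum of 19589.

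Monocyte subpopulations differed in the heavy chain more than in the light chain. Fth1 was 2737 CPM ± 753 (SD, n = 54 sums) in Mon_Fn1, 2972 ± 820 (n = 32) in Mon_Ace, 5647 ± 3475 (n = 23) in Mon_MHC-II and 9497 ± 3609 (n = 25) in Mon_Thbs1. The first pair lay within their spread of each other, and the Mon_Thbs1 sums ran from 2349 to 17650 CPM. Ftl1 was 8216 CPM ± 2006 in Mon_Fn1, 7875 ± 2319 in Mon_Ace, 8359 ± 1473 in Mon_MHC-II and 11798 ± 4895 in Mon_Thbs1, a range within the spread of these sums.

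In neutrophils Fth1 was 3882 CPM ± 489 (SD, n = 4 sums) in Neut_Camp, 7839 ± 2308 (n = 24) in Neut_Lcn2, 8242 ± 3150 (n = 16) in Neut_Ifit3, 10256 ± 3916 (n = 29) in Neut_Ptgs2 and 26141 ± 14144 (n = 5) in Neut_PMN-MDSC. The 5 Neut_PMN-MDSC sums held 88 cells in all and ran from 4986 CPM in a relapse-free lung to 43776 in a metastasis core. Ftl1 was 17546 CPM ± 10542 in Neut_PMN-MDSC, between 7923 and 8825 in Neut_Lcn2, Neut_Ifit3 and Neut_Ptgs2, and 3203 ± 859 in Neut_Camp. In B cells, outside the myeloid lineages, Fth1 was 3290 CPM ± 691 (n = 30 sums), close to Mon_Fn1.

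Hmox1 was high in the same macrophage subpopulations as ferritin. It was 1986 CPM ± 1363 (SD, n = 15 sums) in Mac_Isg20 and 1145 ± 821 (n = 14) in Mac_Gpnmb, and the ranges of these groups overlapped. Mon_Thbs1 followed with 253 ± 204 (n = 25), then Neut_PMN-MDSC with 120 ± 117 (n = 5) and Mac_Cd81 with 105 ± 73.2 (n = 9). The remaining subpopulations had means of at most 59.4 CPM, with sums at 0 UMIs in each of them.

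Slc40a1 had its highest levels in neutrophils, followed by Mac_Isg20. Its level was 609 CPM ± 498 (SD, n = 29 sums) in Neut_Ptgs2, 554 ± 261 (n = 16) in Neut_Ifit3, 398 ± 211 (n = 24) in Neut_Lcn2, 298 ± 237 (n = 5) in Neut_PMN-MDSC and 239 ± 217 (n = 4) in Neut_Camp, all within the spread of their neighbors. Mac_Isg20 had 184 ± 131 (n = 15) and Mac_Gpnmb 93.1 ± 152 (n = 14), with 2 and 4 sums at 0. The Mac_Gpnmb mean rests in part on 1 core sum of 565 CPM, and the median was 42.3 CPM. Mac_Cd81 had 38.6 CPM with 6 of 9 sums at 0, but its primary tumor sums had a mean of 86.9 ± 62.6 (n = 4), and over all its summed UMIs the level was 97.9 CPM against 57.1 in Mac_Gpnmb. Monocyte subpopulations had means of 3.35 to 10.1 CPM, and the median of each was 0.

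Per cell, at least 1 Slc40a1 UMI was found in 775 of 3972 neutrophils (19.5%), 108 of 1791 macrophages (6.03%) and 43 of 6308 monocytes (0.682%). T cells, taken as the background, had a UMI in 23 of 6846 cells (0.336%) at a median of 996.5 UMIs per cell, against 989 in neutrophils, 1673 in macrophages and 1452 in monocytes. With each cell thinned to 500 UMIs the shares were 12.5% in neutrophils, 2.69% in macrophages, 0.191% in monocytes and 0.126% in T cells. The thinned monocyte share lay close to the T cell background, and the monocyte counts are not read as expression.

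Macrophages with and without a Slc40a1 UMI were set side by side for other marker RNA. The 58 of 494 Mac_Isg20 cells with a Slc40a1 UMI came from 14 mice, held up to 35 such UMIs in a cell, and had 517 CPM of summed neutrophil markers, against 680 CPM in the 436 cells without one. Hmox1 was 3763 CPM in the cells with Slc40a1 and 1974 CPM in those without. Erythroid markers were 280 and 140 CPM, and the median depth was 2002 and 1288 UMIs. In Mac_Gpnmb, the 23 cells with a Slc40a1 UMI had 672 CPM of neutrophil markers against 608 CPM in the cells without one, at median depths of 2784 and 1693 UMIs. Their Hmox1 was 1933 against 1073 CPM, and their erythroid markers were lower, at 31.0 against 71.5 CPM. In Mac_Cd81, the 22 cells with one had 113 CPM of neutrophil markers and 110 CPM of Hmox1, against 280 and 125 CPM in those without, at median depths of 16621 and 2194 UMIs. Erythroid markers in Mac_Cd81 were 20.5 CPM with and 63.3 CPM without a Slc40a1 UMI. The share of cells with a neutrophil marker UMI was 39.7% with and 38.1% without a Slc40a1 UMI in Mac_Isg20, 34.8% and 44.1% in Mac_Gpnmb, and 36.4% and 39.8% in Mac_Cd81. By tissue, 20 of the 22 Mac_Cd81 cells with a Slc40a1 UMI came from primary tumors, where this label had a median of 8661 UMIs per cell. Of the 23 Mac_Gpnmb cells, 13 came from the core, 9 from metastasis tissue and 1 from the margin. Of the 58 Mac_Isg20 cells, 29 came from the core and 23 from metastasis tissue. The part of tissue, of neutrophil and erythroid RNA and of depth in the Slc40a1 values was not tested.

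Slc11a1 was found in most myeloid subpopulations and was lowest in Mac_Cd9. It was 341 CPM ± 131 (SD, n = 14 sums) in Mac_Gpnmb, 271 ± 186 (n = 29) in Neut_Ptgs2, 258 ± 122 (n = 15) in Mac_Isg20, 248 ± 118 (n = 32) in Mon_Ace, 196 ± 99.6 (n = 25) in Mon_Thbs1 and 194 ± 142 (n = 24) in Neut_Lcn2. These groups overlapped. Mac_Cd81 had 165 ± 27.5 (n = 9), Mon_Fn1 121 ± 94.6 (n = 54) and Mon_MHC-II 120 ± 89.9 (n = 23). Neut_PMN-MDSC had 57.8 CPM with 3 of 5 sums at 0, and Neut_Camp 27.9 CPM with 3 of 4 at 0. In Mac_Cd9 a single UMI was found in 351 cells of 11 mice, and 10 of the 11 sums were at 0.

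**Figure D1:**
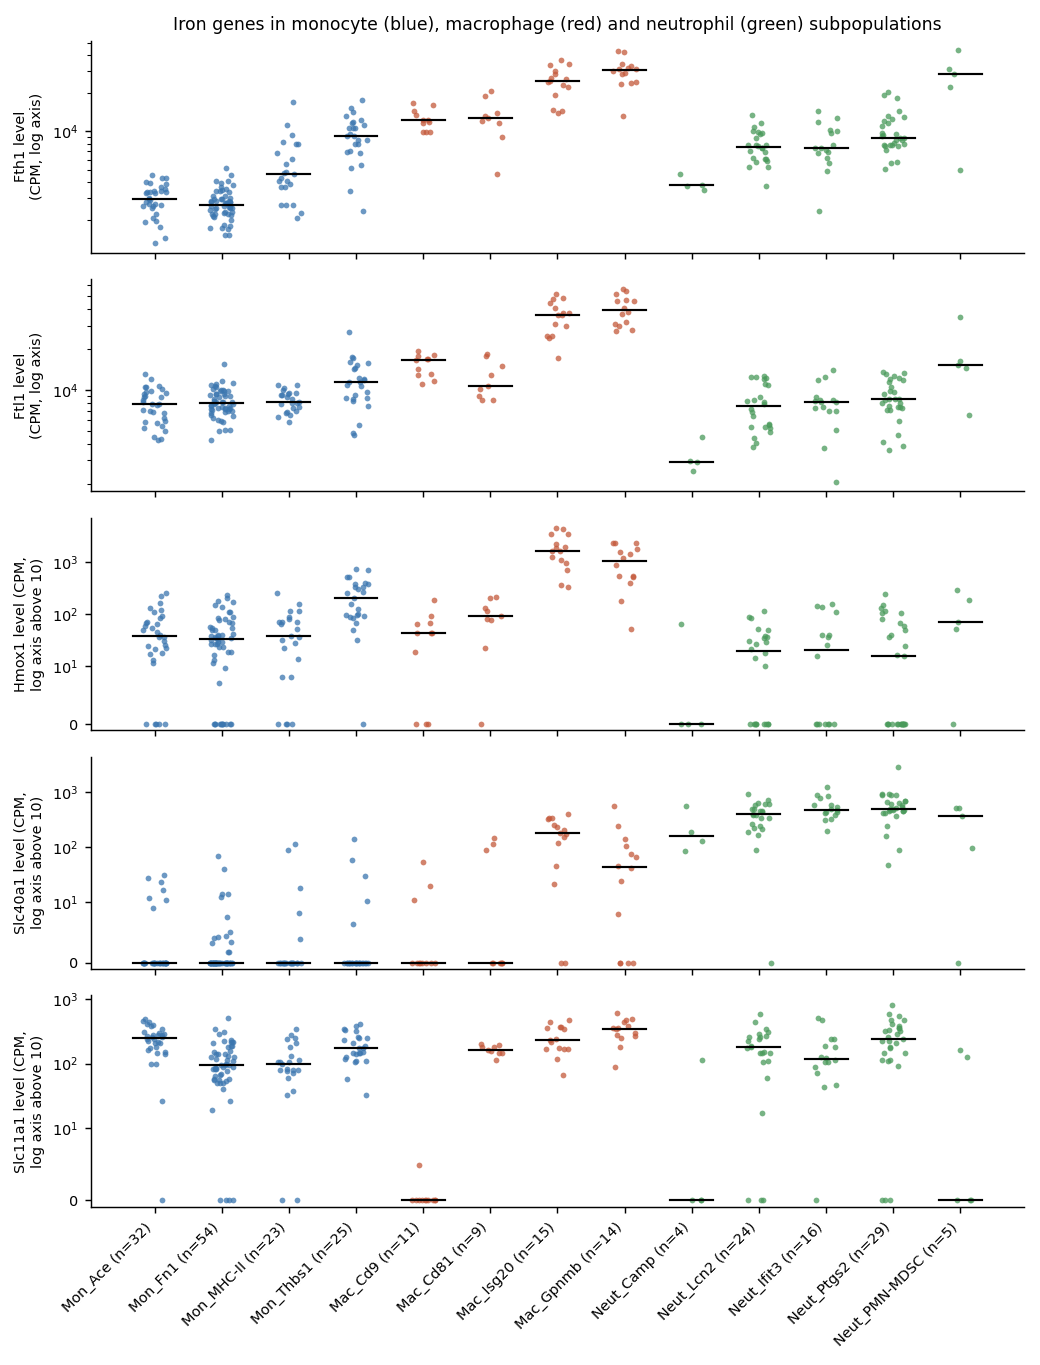
Levels of the 5 iron genes (CPM, on log axes as labelled) in the sums of each monocyte, macrophage and neutrophil subpopulation, with 1 point per mouse and tissue and a black bar at the median. Fth1, Ftl1 and Hmox1 sit high in Mac_Isg20 and Mac_Gpnmb, Slc40a1 sits high in the neutrophils, and Slc11a1 is at 0 in 10 of 11 Mac_Cd9 sums.

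The 2 ferritin chains were not present in the same proportion in all cells. The log2 ratio of Fth1 to Ftl1 UMIs was -1.60 ± 0.54 (SD, n = 54 sums) in Mon_Fn1, -1.40 ± 0.52 in Mon_Ace, -0.76 ± 0.81 in Mon_MHC-II and -0.32 ± 0.57 in Mon_Thbs1. Macrophage subpopulations lay between -0.51 and 0.03, and neutrophil subpopulations between 0.03 and 0.48. Rows of similar sequence could share reads with both genes, and the counts do not show which gene these reads came from. Rows whose transcripts align with Ftl1 over at least 100 bases (26 rows, among them Ftl1-ps1 with 99.6% identity) held 38.8% of the summed UMIs, and 3 such rows for Fth1, with 81.1% to 90.5% identity, held 16.6%. The Ftl1 share ran from 26.3% to 57.7% between sequencing batches and the Fth1 share from 9.03% to 21.9%, and the ratio was recomputed with these rows added. With them, the log2 ratio was -2.21 ± 0.71 in Mon_Fn1 and -0.83 ± 0.73 in Mon_Thbs1, macrophage subpopulations lay between -1.14 and -0.45, and neutrophil subpopulations between -0.50 and 0.13. The sign turned in Mac_Cd81 and in 4 of 5 neutrophil subpopulations, so which chain had more UMIs is not settled there.

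The first comparison across tissues asked how metastasis tissue differed from distal normal tissue of the same lungs. For each lineage, edgeR's quasi-likelihood fit compared the sums over every gene left by its low-count filter, and p-values carry the Benjamini-Hochberg correction. In such sums, a change in which cells are present and a change of RNA within a cell cannot be told apart. In monocytes, Fth1 in distal normal tissue ran from 1616 CPM through a median of 2731 to 3561 (14 mice), and in metastasis tissue from 2263 through 5400 to 8226 (13 mice). The groups overlapped, with 10 of 13 metastasis sums above every distal normal sum, and Fth1 was higher in metastasis in 13 of 13 mice with both tissues. The log2 difference was 1.02 ± 0.19 (SE, adjusted p = 0.00094), in a comparison in which 1.48% of the 2098 genes tested were called, all higher in metastasis.

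Ftl1 in the same monocytes ran from 5556 CPM through 8738 to 12283 in distal normal tissue and from 5588 through 9619 to 18078 in metastasis, with a log2 difference of 0.24 ± 0.17 (adjusted p = 0.81). Slc11a1 had a log2 difference of 0.32 ± 0.26 (adjusted p = 0.89). Hmox1 did not pass the filter. It was 0 to 111 CPM in distal normal tissue (median 39.6) and up to 399 in metastasis (median 82.6), and 6 of 13 metastasis sums were above every distal normal sum. In the fit without the filter its log2 difference was 1.95 ± 0.34 (adjusted p = 8.03e-06, with 322 of 22399 genes called), higher in 10 of 13 mice. Slc40a1 rested on 6 and 13 UMIs in all and did not pass the filter.

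The mix of monocyte subpopulations moved with this result. Mon_Thbs1 made up 5.28% ± 4.77 (SD, n = 14) of the monocytes in distal normal tissue and 25.5% ± 18.8 (n = 13) in metastasis, while Mon_Fn1 went from 68.8% to 51.4%. Within Mon_Fn1, Fth1 was 2415 CPM ± 634 (n = 13) in distal normal tissue and 2809 ± 448 (n = 13) in metastasis, with a log2 difference of 0.19 (edgeR adjusted p = 1.0), and within Mon_Ace the log2 difference was -0.049 (adjusted p = 0.98). Mon_Thbs1 had 1 distal normal sum, at 3352 CPM of Fth1, and 10 metastasis sums from 6735 to 17650 CPM, which allowed no test. Each sum was assigned to the sequencing batch with most of its cells, and 7 of the 63 samples were spread over more than 1 batch. Between sums assigned to the same batch, the lineage difference was 0.63 to 1.19 in the 3 batches with both tissues. The part of the mix in the Fth1 result was not tested.

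**Figure D2:**
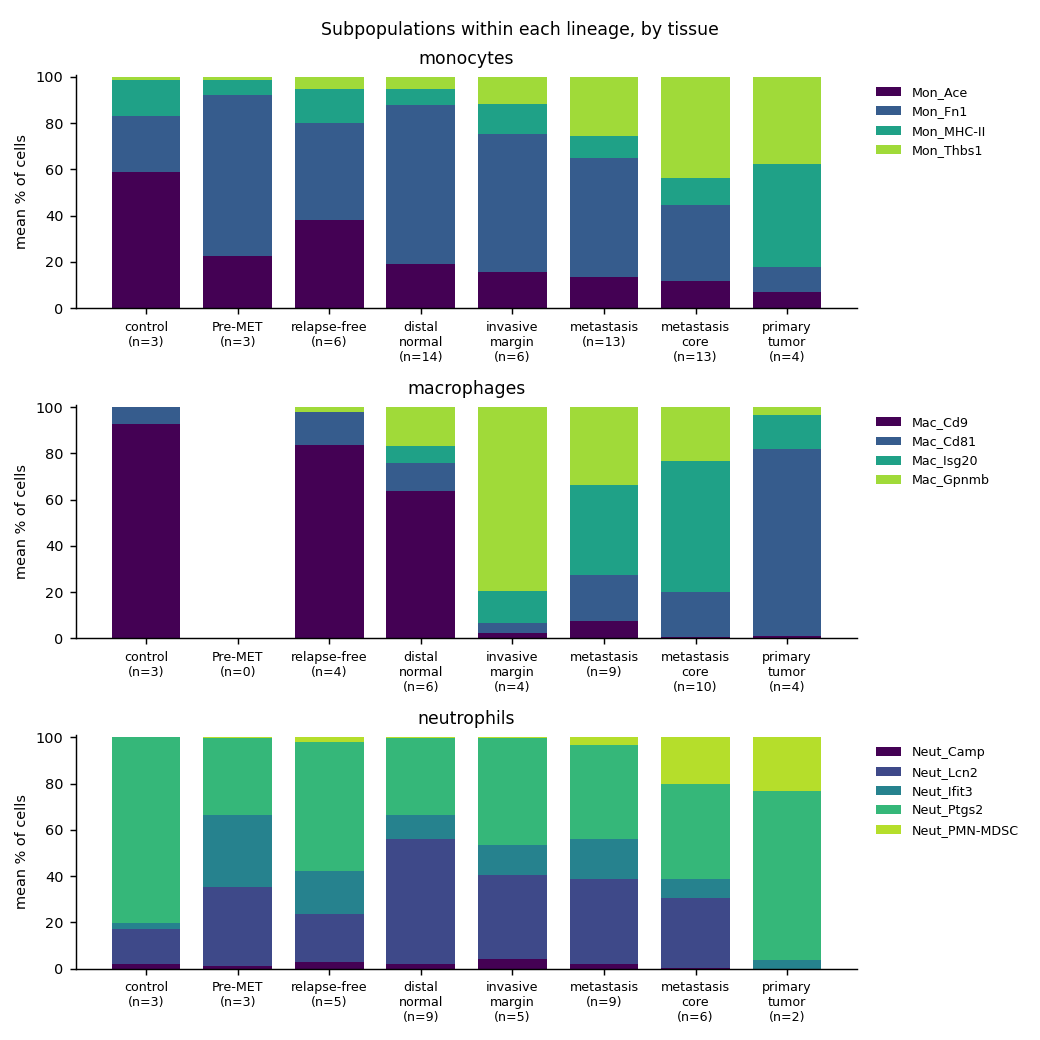
Mean share of each subpopulation (percent of cells) in the monocyte, macrophage and neutrophil sums of each tissue, with n sums under each bar. Mon_Thbs1 goes from 5.28% of monocytes in distal normal tissue to 43.7% in the metastasis core, and Mac_Cd9 from 63.6% of macrophages to 0.484%.

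In macrophages, Hmox1 and Slc11a1 rose from distal normal tissue to metastasis. Hmox1 was 0 CPM in 4 of 6 distal normal sums and 470 and 680 CPM in the others. In metastasis it ran from 324 CPM through a median of 1208 to 3105 (9 mice), and 7 of 9 sums were above every distal normal sum. The log2 difference was 3.10 ± 0.75 (SE, edgeR adjusted p = 0.0091), in a comparison in which 9.54% of 1289 genes were called (6.9% higher and 2.64% lower in metastasis). With 4 of 6 distal normal sums at 0 the size of this difference is not fixed, and it was 4.80 with batch as a term and 10.58 with cells of at least 1000 UMIs. Slc11a1 ran from 0 CPM through 17.6 to 226 in distal normal tissue and from 139 through 279 to 457 in metastasis, with 8 of 9 sums above every distal normal sum and a log2 difference of 2.13 ± 0.57 (adjusted p = 0.017), or 3.87 with cells of at least 1000 UMIs. The distal normal sums held 10 to 20 macrophages each and 30 Hmox1 and 10 Slc11a1 UMIs in all.

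The ferritin chains of macrophages pointed the same way without passing the test. Fth1 ran from 11680 CPM through 15857 to 32968 in distal normal tissue and from 19863 through 26842 to 32542 in metastasis, with a log2 difference of 0.74 ± 0.29 (edgeR adjusted p = 0.11). Ftl1 ran from 15129 CPM through 22100 to 31324 and from 19314 through 33570 to 46491, with a log2 difference of 0.72 ± 0.27 (adjusted p = 0.094). With the mouse as a block, the adjusted p was 0.049 for Fth1 and 0.018 for Ftl1, in a fit with 120 of 762 genes called. All 5 members were higher in metastasis in 5 of 5 mice with both tissues, where the median log2 difference over all genes tested was 0.15. For Slc40a1 the distal normal sums of these mice were all at 0, so any UMI in metastasis counted as higher. Slc40a1 did not pass the filter. It was 0 in 5 of 6 distal normal sums and 56.7 CPM in the sixth, against a median of 82.7 CPM and a highest value of 225 in metastasis, with 2 UMIs against 121. In the fit without the filter its log2 difference was 3.35 ± 0.90 (adjusted p = 0.014, with 461 of 17180 genes called).

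Here too the cells differed. Mac_Cd9 made up 63.6% ± 25.2 (SD, n = 6) of the distal normal macrophages and 7.65% ± 8.88 (n = 9) of those in metastasis, while Mac_Isg20 went from 7.19% to 39.2% and Mac_Gpnmb from 16.9% to 33.5%. The summed alveolar macrophage markers were 4416 to 16932 CPM in distal normal sums and 83.2 to 3665 CPM in metastasis, and 3 of the 3 such markers tested fell. Summed neutrophil markers were 157 to 3288 and 83.2 to 1774 CPM, and erythroid markers 0 to 1019 and 0 to 386 CPM. No macrophage subpopulation had 3 sums in both tissues, so the difference could not be tested within one, and the part of the mix was not tested. Within the 2 sequencing batches that held both tissues, all 5 members were higher in metastasis, with distal normal Slc40a1 at 0 in both. Hmox1 was 470 CPM in distal normal tissue and 3105 CPM in metastasis in one batch, with 1 sum of each tissue. In the other it was 0 and 929 CPM, as means of 4 and 3 sums.

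No member was called between distal normal tissue and metastasis in neutrophils, where 0% of 715 genes were called (26 had an unadjusted p under 0.05). Fth1 ran from 5255 CPM through 7055 to 8924 in distal normal tissue and from 6049 through 9041 to 13558 in metastasis (9 mice each), with a log2 difference of 0.42 ± 0.21 (SE, edgeR adjusted p = 1.0), and was higher in 6 of 6 mice with both tissues. Ftl1 differed by -0.022 ± 0.24, Slc40a1 by -0.15 ± 0.28 and Slc11a1 by -0.60 ± 0.38, none past the test. Slc40a1 had a mean of 416 CPM ± 165 (SD) in distal normal tissue and 389 ± 145 in metastasis.

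**Figure D3:**
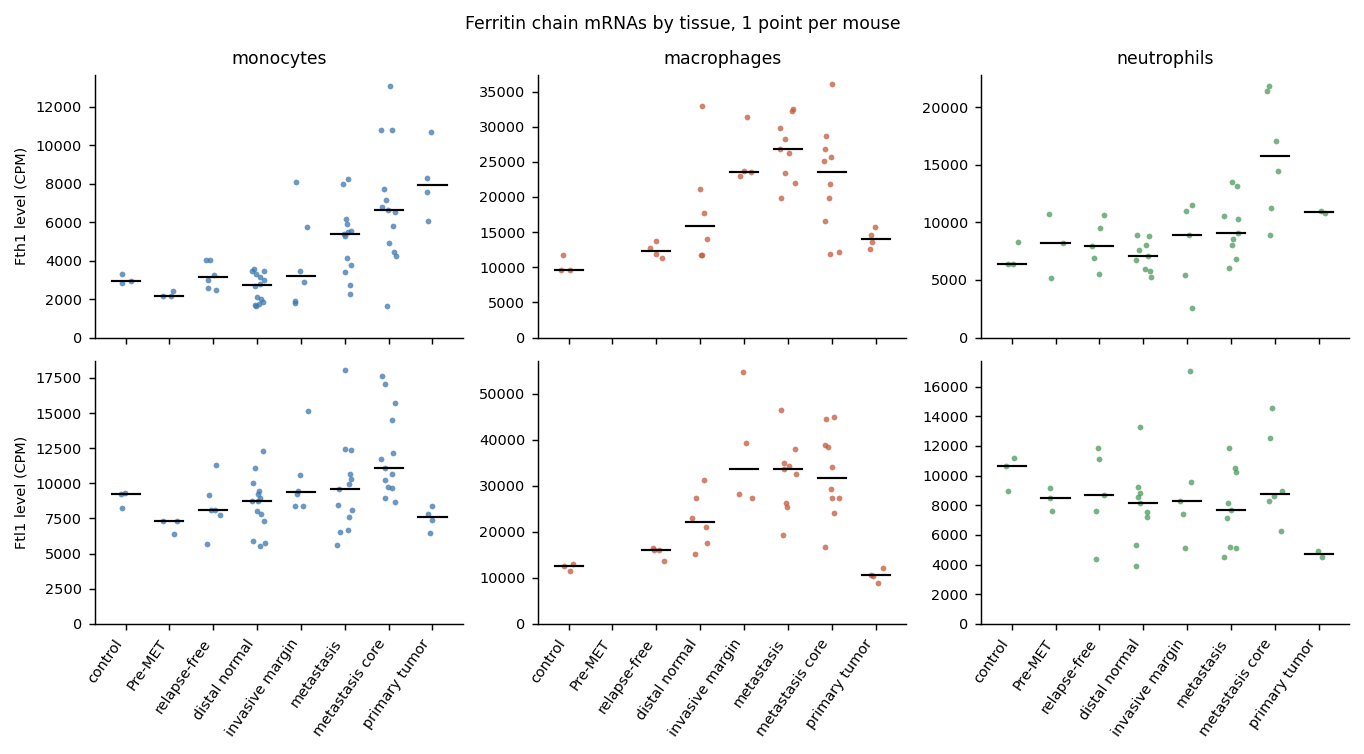
Fth1 and Ftl1 levels (CPM) in the monocyte, macrophage and neutrophil sums of each tissue, with 1 point per mouse and a black bar at the median. In monocytes 10 of 13 metastasis sums of Fth1 lie above all 14 distal normal sums, while the Ftl1 sums of these tissues overlap.

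**Figure D4:**
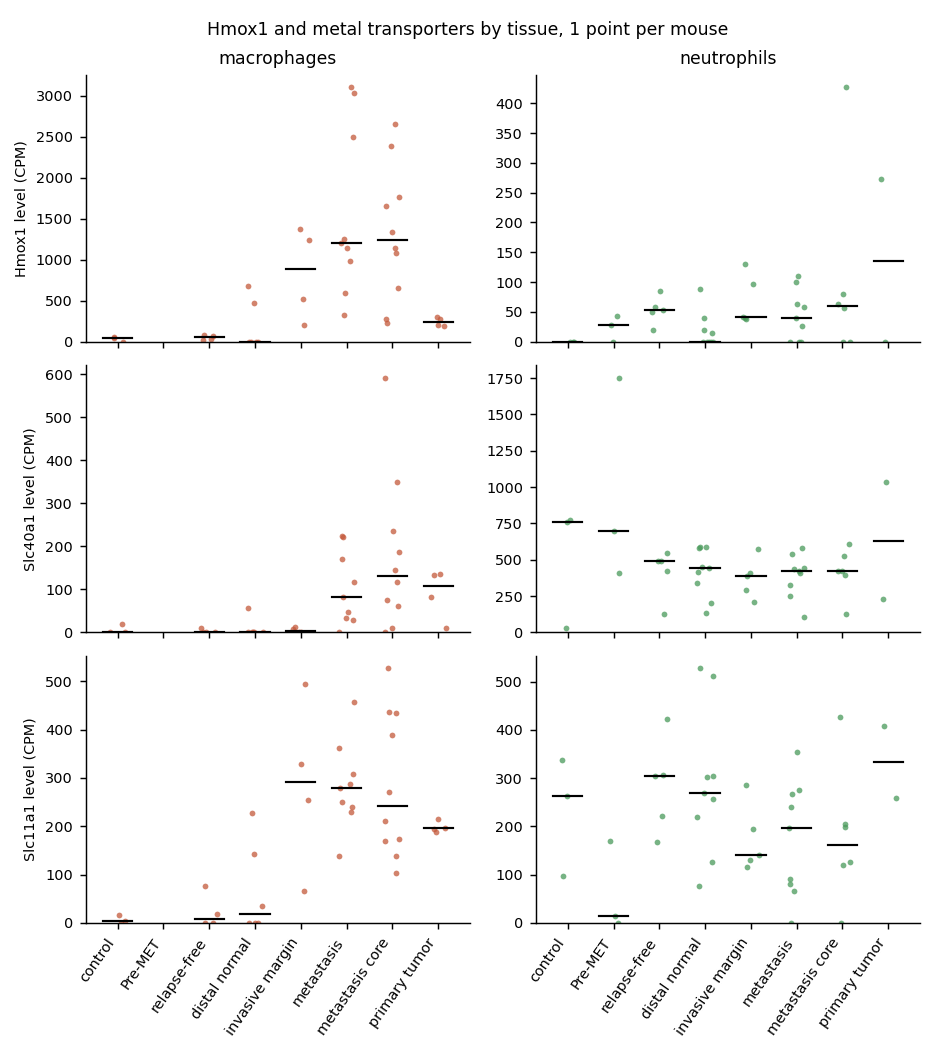
Hmox1, Slc40a1 and Slc11a1 levels (CPM) in macrophage and neutrophil sums of each tissue, with 1 point per mouse and a black bar at the median. Macrophages of control and relapse-free lungs have means of at most 49.7 CPM for all 3 genes, and the neutrophil levels of Slc40a1 have medians between 391 and 759 CPM in the tissues with 3 or more mice.

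The ratio of the 2 ferritin chains was compared within each mouse on the lineage sums. There library size drops out, but the mix of subpopulations and the sequencing batch do not. Over the label sums the ratio was -1.60 in Mon_Fn1 and -0.32 in Mon_Thbs1. Mon_Thbs1 made up 5.28% of distal normal and 25.5% of metastasis monocytes, and Neut_PMN-MDSC 0.111% and 3.36% of neutrophils. A single sequencing batch was assigned 2 distal normal and 4 metastasis monocyte sums, so some mice had their tissues in different batches. Distal normal monocytes in that batch averaged 3509 CPM of Fth1 and 5834 CPM of Ftl1. In the batch with most such sums they averaged 2621 and 9902 CPM. The parts of mix and batch in these ratios were not tested. In monocytes the log2 ratio of Fth1 to Ftl1 was -1.77 ± 0.57 (SD, n = 13 mice) in distal normal tissue and -0.96 ± 0.54 in metastasis, and it was higher in metastasis in 13 of 13 mice, by 0.81 ± 0.58 (two-sided exact sign-flip permutation test, p = 0.00024, the smallest value the test can give, and 0.00073 adjusted over 3 lineages). In neutrophils it went from -0.019 ± 0.55 to 0.51 ± 0.68 and was higher in 6 of 6 mice (exact permutation p = 0.031, also the smallest possible, adjusted p = 0.047). In macrophages it was higher in 1 of 5 mice, with a mean difference of -0.18 ± 0.16 (exact permutation p = 0.13, smallest possible 0.063). The neutrophil result missed the threshold when the look-alike rows were added, with a difference of 0.51 (exact permutation adjusted p = 0.094), and with at least 20 cells per sum, with a difference of 0.33 (exact permutation adjusted p = 0.063). Whether the metastasis effect on a member differed between lineages is not known, because the 3 to 6 mice shared by a pair of lineages were too few for any of the 15 differences to pass an adjusted exact test.

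**Figure D5:**
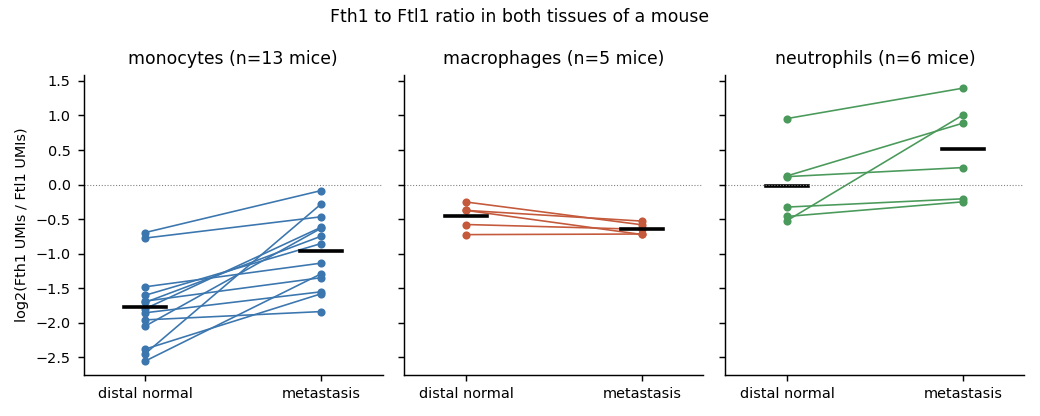
The log2 ratio of Fth1 to Ftl1 UMIs in distal normal tissue and metastasis, with 1 line per mouse and a black bar at the mean. All 13 monocyte lines and all 6 neutrophil lines go up, and 1 of 5 macrophage lines does.

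The core of a metastasis was then set against its invasive margin. In macrophages, Slc40a1 stood out by size. It was 0, 0, 7.26 and 12.1 CPM in the 4 margin sums, and ran from 0 through a median of 131 to 592 CPM in the 10 core sums, with 8 of 10 above every margin sum. The log2 difference was 4.66 (SE 1.123), and it did not pass the correction over 1743 genes (edgeR unadjusted p = 0.00037, adjusted p = 0.13), in a comparison in which 0% of genes were called and 178 had an unadjusted p under 0.05. Without the filter Slc40a1 was called (4.63 ± 0.94, adjusted p = 0.0022), as 1 of 17 genes among 16999. In reads, 2 UMIs in 363048 stood against 165 in 901939, a ratio of 33.2 (95% exact counting interval 9.05 to 277). This interval treats each UMI as independent and leaves out differences between cells and between mice.

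Mac_Gpnmb made up 79.4% ± 14.4 (SD, n = 4) of margin macrophages and 23.5% ± 18.8 (n = 10) of core macrophages, and Mac_Isg20 went from 13.8% to 56.4%. Within Mac_Gpnmb, a Slc40a1 UMI was found in 1 margin cell (0.676%, 95% exact Clopper-Pearson interval 0.0171 to 3.71), 9 of 171 metastasis cells (5.26%, 2.43 to 9.76) and 13 of 98 core cells (13.3%, 7.26 to 21.6), at median depths of 1347, 2105 and 1944 UMIs. The 4 margin sums of Mac_Gpnmb were at most 8.00 CPM and the 3 core sums ran from 44.2 to 565 CPM. Slc40a1 did not pass the filter of the fit within Mac_Gpnmb. Within the 3 sequencing batches that held both sites, Slc40a1 was higher in the core, on 1 or 2 sums of a site per batch. Margin and core levels were 0 and 236 CPM (1 sum each), 3.63 and 62.0 CPM (2 sums and 1), and 12.1 and 354 CPM (1 sum and 2). Both sums of the batch at 0 and 236 CPM came from mouse 17. This mouse stood apart by its labels, since its margin was activated on tissue named NON-MET and its core was also gated on CD45. Without it the log2 difference was 4.07 (SE 1.31, edgeR adjusted p = 0.28).

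Other members of core and margin macrophages overlapped. Fth1 was 23709, 23507, 22987 and 31361 CPM in the margin and 11889 through 23484 to 36093 CPM in the core, and Ftl1 was 28222, 54859, 39318 and 27345 CPM against 16745 through 31738 to 44973. Log2 differences were -0.26 ± 0.33 for Fth1, -0.30 ± 0.31 for Ftl1, 0.61 ± 0.58 for Hmox1 and -0.13 ± 0.49 for Slc11a1, none called by edgeR.

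In monocytes, Fth1 ran from 1808 CPM through 3195 to 8065 in the margin (6 mice) and from 1627 through 6620 to 13099 in the core (13 mice). The log2 difference was 0.79 ± 0.36 (SE, edgeR adjusted p = 0.59), where 0% of 1025 genes were called and 84 had an unadjusted p under 0.05. With the mouse as a block, it was 1.45 ± 0.20 (adjusted p = 0.00055, with 58 of 1354 genes called), and Fth1 was higher in the core in 5 of 5 mice with both sites. Within sequencing batches it was higher in the core in 3 of 4, with log2 differences from -0.53 to 1.75. Mon_Thbs1 made up 11.7% ± 12.1 of margin and 43.7% ± 23.8 of core monocytes, and within Mon_Fn1 Fth1 differed by 0.22 (adjusted p = 0.97). In the monocyte sums Ftl1 differed by 0.22 ± 0.19 (edgeR adjusted p = 0.85) and was higher in the core in 5 of 5 mice. Hmox1 differed by -0.84 ± 0.64 (edgeR adjusted p = 0.81) and was higher in the core in 3 of 5 mice. Its margin sum in mouse 36 was 1243 CPM, with the next highest at 225. Within sequencing batches Hmox1 was higher in the core in 2 of 4, with log2 differences from -1.82 to 2.03. In neutrophils, Fth1 was 8878, 5426, 11025, 2606 and 11558 CPM in the margin and 8895 through 15758 to 21890 CPM in the core, higher in the core in 4 of 4 mice, with a log2 difference of 0.98 ± 0.35 (edgeR adjusted p = 0.36, 0.463% of 216 genes called). DESeq2 called Fth1 (1.08, adjusted p = 0.023), in a fit in which it called 3.70% of the genes. Neut_PMN-MDSC made up 0.466% of margin and 19.99% of core neutrophils on average.

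Macrophages of the primary tumor had less Ftl1 and Hmox1 than those of the metastasis core. Ftl1 was 10497, 8866, 10695 and 12201 CPM in the 4 primary tumors and ran from 16745 through 31738 to 44973 CPM in the 10 cores. The log2 difference was 1.59 ± 0.32 (SE, edgeR adjusted p = 0.0034), with 4.53% of 2162 genes called (2.87% higher and 1.67% lower in the core). Hmox1 was 207, 276, 194 and 296 CPM in the tumors and 232 through 1245 to 2656 CPM in the cores, with 8 of 10 cores above every tumor and a log2 difference of 2.45 ± 0.55 (adjusted p = 0.0097, and 0.052 without the primary tumor of mouse 10). With cells of at least 1000 UMIs Ftl1 was called (adjusted p = 0.012) and Hmox1 was not (2.48, adjusted p = 0.053). Fth1, at 12592, 14566, 15777 and 13557 CPM in the tumors, differed by 0.67 ± 0.33 (adjusted p = 0.32), Slc40a1 by 0.92 ± 0.67 and Slc11a1 by 0.47 ± 0.40, none called.

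Mac_Cd81 made up 80.9% ± 7.94 (SD, n = 4) of primary tumor macrophages and 19.7% ± 9.08 (n = 10) of core macrophages. Within Mac_Cd81, Ftl1 was 8449 to 10215 CPM in the 4 tumors and 10767 to 18621 CPM in 3 cores, with a log2 difference of 0.42 (edgeR adjusted p = 0.47). Median depth per cell was 3525 UMIs in primary tumor samples and 817 in core samples. A single sequencing batch held both tissues, with 1 tumor and 2 cores, where Ftl1 was higher by 1.29 and Hmox1 by 3.54 log2 units in the cores. With batch as a term of the model neither gene was called (adjusted p = 0.38 and 0.19). Of 8 macrophage markers tested, 5 were lower and 1 was higher in the core, and the 1 neutrophil marker tested was higher by 5.08 log2 units. The parts of mix, depth, gate, batch and neutrophil RNA were not tested separately.

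In monocytes of the same tissues edgeR called no member, with 1.47% of 1835 genes called (0.926% higher and 0.545% lower in the core). The 1 neutrophil marker tested was higher by 3.68 log2 units in the core, and its part was not tested. Ftl1 was 8353, 6480, 7800 and 7410 CPM in the primary tumors and 8685 through 11057 to 17658 CPM in the cores, at a log2 difference of 0.59 ± 0.24 (SE, edgeR adjusted p = 0.26). DESeq2, which called 4.36% of all genes here, called Ftl1 (0.63, adjusted p = 0.024). So did edgeR with the look-alike rows added (1.05, adjusted p = 0.046), where it called 17 of 1825 genes. Fth1 had a log2 difference of -0.31 ± 0.33. Hmox1 was 76.1, 39.1, 137 and 70.7 CPM in the tumors and had a median of 185 CPM in the cores (adjusted p = 0.36). Neutrophils were not compared, since only 2 primary tumors had 10 of them.

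Control and Pre-MET lungs asked whether iron genes had moved before metastases appeared. In monocytes Fth1 was 3299, 2820 and 2959 CPM in the controls and 2168, 2173 and 2402 CPM in Pre-MET lungs, and Ftl1 was 9245, 8278 and 9292 against 6396, 7325 and 7341. Neither gene passed the test, with log2 differences of -0.46 ± 0.15 (SE, edgeR adjusted p = 0.095) and -0.38 ± 0.13 (adjusted p = 0.13). In this comparison 4.32% of 4953 genes were called (2.3% higher and 2.02% lower in Pre-MET). DESeq2 called both (adjusted p = 0.023 and 0.035), in a fit in which it called 5.33% of all genes. Slc11a1 was 227, 210 and 173 CPM against 112, 154 and 100 (log2 difference -0.78 ± 0.31, edgeR adjusted p = 0.18). Hmox1 had a log2 difference of -1.34 ± 0.71 (edgeR adjusted p = 0.34), and Slc40a1 did not pass the filter. By the batch with most of their cells, the control and Pre-MET monocyte sums shared no sequencing batch, so batch and group cannot be told apart. Mon_Ace made up 59.0% of control and 22.6% of Pre-MET monocytes. In neutrophils 0 of the 3 members tested were called (1.06% of 377 genes called, 0.796% higher and 0.265% lower), and Slc40a1 was 770, 29.2 and 759 CPM in the controls and 1753, 405 and 694 CPM in Pre-MET lungs. Pre-MET lungs had no sum of 10 macrophages.

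Within single subpopulations, 14 fits with 41 tests of members were possible over these 4 comparisons, and edgeR called 0 of the 41, while DESeq2 called 2. Both were Ftl1 differences, of -0.51 in Mon_Ace between control and Pre-MET and of 0.70 in Mon_Thbs1 between primary tumor and core, in fits in which DESeq2 called 1.42% and 4.26% of all genes. Other genes were called in some of these fits. Between primary tumor and core the share was 8.25% of 1563 genes in Mac_Cd81 (2.62% higher, 5.63% lower in the core), 0.59% in Mon_Fn1 (all higher) and 1.24% of 2345 in Mon_Thbs1 (0.682% higher, 0.554% lower). Between control and Pre-MET it was 0.371% in Mon_Ace (0.309% higher, 0.0618% lower), 0.336% in Mon_Fn1 (0.275% higher, 0.0611% lower) and 1.51% in Neut_Ptgs2 (all higher), and in the other 8 fits it was 0%.

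Relapse-free and control lungs are given as values only, since part of the relapse-free cells were sorted with other gates. Macrophage Ftl1 was 13696 to 16442 CPM in relapse-free (n = 4) and 11431 to 12976 CPM in control lungs (n = 3). Macrophage Fth1 was 12409 CPM ± 994 (SD, n = 4) in relapse-free and 10304 ± 1225 (n = 3) in control lungs, and Hmox1 was 49.7 ± 27.4 and 35.0 ± 31.6 CPM. Monocyte Fth1 was 3214 ± 687 (n = 6) and 3026 ± 246 CPM.

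The other genes of iron and heme handling and of the oxidative stress response were counted over a list of 48 with a row in the files. Between distal normal tissue and metastasis, 2 of 13 tested rose in macrophages and none fell, where 6.9% of all genes tested were called higher and 2.64% lower, with a median log2 difference of 0.19 over the list and 0.15 over all genes. They were Prdx1, a peroxiredoxin (1.65 ± 0.39, edgeR adjusted p = 0.0076), and Blvrb, biliverdin reductase B (1.73 ± 0.47, adjusted p = 0.018). In monocytes 0 of 12 and in neutrophils 0 of 8 were called in that comparison, where 1.48% of 2098 and 0% of 715 genes were called. Between primary tumor and core, 4 of 19 tested rose in macrophages and none fell, where 2.87% of all genes tested were called higher and 1.67% lower, with a median of 0.45 over the list and -0.0064 over all genes. These were Slc7a11, the cystine transporter (3.44 ± 0.67), Gclm, a subunit of the enzyme that starts glutathione synthesis (3.18 ± 0.72), Txnrd1, a thioredoxin reductase (2.38 ± 0.68), and Slc48a1, a heme transporter (1.95 ± 0.50). With batch as a term, 2 of all genes tested were called in this comparison, against 98 without it. Slc7a11 averaged 1877 CPM in Neut_Ptgs2 and 23.8 to 234 CPM in the macrophage subpopulations, and the 1 neutrophil marker tested was higher in core macrophages by 5.08 log2 units. The part of batch and neutrophil RNA was not tested for these genes. In monocytes 0 of 14 were called between primary tumor and core, where 1.47% of 1835 genes were called.

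Between core and margin, 0 of 18 listed genes were called in macrophages, 0 of 8 in monocytes and 0 of 3 in neutrophils. Over all genes tested, 0% of 1743, 0% of 1025 and 0.463% of 216 were called, so these counts do not set the list apart. Between control and Pre-MET monocytes, 1 of 16 rose, Hp, which codes for the hemoglobin scavenger haptoglobin (1.17 ± 0.24, edgeR adjusted p = 0.010), and 1 fell, Hfe, a regulator of iron sensing (-1.36 ± 0.32, adjusted p = 0.023), where 2.3% of all genes were called higher and 2.02% lower. Batch and group cannot be told apart here. Over the label sums, Hfe averaged 224 CPM in Mon_Ace and 59.6 CPM in Mon_Fn1 and Hp 878 and 1526 CPM, and Mon_Ace was the smaller share in Pre-MET lungs. The part of this mix was not tested. Within subpopulations 1 of 104 tests of listed genes was called, for Gsr, a glutathione reductase, which was lower in core than in primary tumor Mon_Thbs1 (-1.72 ± 0.44, adjusted p = 0.043), where 0.554% of all genes were called lower and where 1 sequencing batch held both tissues, with 1 sum of each.

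The genes whose levels went most closely with a member were found by Pearson correlation of log2(CPM + 10) over the 261 sums, among 3282 genes, as a description. These sums share mice, batches and depth. For Fth1 they were its pseudogene row Gm6977 (r = 0.89), Ctsd (0.74), which codes for the lysosomal protease cathepsin D, and Cd63-ps (0.73). For Ftl1 the 3 closest rows were all look-alikes (Mir692-1, Ftl1-ps2 and Ftl2-ps, 0.81 to 0.75), and Gpnmb (0.67) came first without them. For Hmox1 they were Ccl7 (0.67), Ecm1 (0.64) and Ccl2 (0.63), of which Ccl7 and Ccl2 code for chemokines that attract monocytes. For Slc40a1 they were Cxcr2 (0.82), a neutrophil chemokine receptor, Mmp9 (0.81) and Acod1 (0.78). For Slc11a1 they were Pla2g7 (0.58), H2-D1 (0.56) and Socs3 (0.42). Among the members, Fth1 and Ftl1 had r = 0.65 and Hmox1 had 0.59 with Ftl1, while Slc40a1 had 0.43 with Fth1, 0.027 with Ftl1 and -0.046 with Hmox1.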

How the data were processed

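Single cells were sorted into plates and counted by 3′ UMIs of 8 bases. The authors mapped reads to mm10 with HISAT, dropped reads with several mapping positions, assigned the rest to UCSC exons, and deposited UMI counts per gene and well for 148 plates, with a cell annotation from their metacell clustering of cells with at least 500 UMIs. The submitters' processing notes name bcl2fastq 2.15.0.4.

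Counts of annotated cells were summed per mouse, tissue and subpopulation or lineage (at least 10 cells). Groups came from the sample labels. In batch terms and within-batch values, a sum carried the sequencing batch that gave most of its cells. Lineage sums were tested with edgeR 4.0.16 (R 4.3.3; quasi-likelihood, TMM, filterByExpr, only the 2 groups compared, at least 3 sums each, adjusted p threshold 0.05). SE are derived from the F statistic. The fits and the permutation test were tested on simulated data. Ratios and lineage differences used exact sign-flip tests (numpy 2.4.6). Alternatives were DESeq2 1.42.0, other size factors, filters, batch and mouse terms, leaving out mice, and look-alike rows (BLAST+ 2.17.0, added after seeing the data). Mice pair tissues by design: sums of a mouse correlated at a mean r of 0.074 to 0.28, against -0.069 to -0.014 between mice. No 2 sums were identical.

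Named genes are the 5 members, listed iron genes called in a comparison, and the 3 genes most correlated with each member. Members, lists and tests were chosen with earlier results of these data known. Cells labelled erythrocytes, tumor or outlier stayed out of the sums. Sorting excluded doublets, and none were called here. Replicates were separate mice. Intervals treat cells or UMIs as independent and leave out differences between mice.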

Additional observations from a re-analysis of the deposited data

Results flagged for a closer look

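Of 70 groups of 4 to 10 sums tested for a value far from the others, 10 were flagged, where chance flags about 1 in 20 groups. That rate does not hold for 3 of them, all for Slc40a1, in which 1 sum held the only 1 to 4 UMIs of its group and stood apart by construction. Mouse 36 gave 3 of them: Hmox1 was 1243 CPM in its invasive margin monocytes (next highest 225) and 427 CPM in its core neutrophils (next 80.8), and Fth1 was 31361 CPM in its margin macrophages (next 23709). In margin monocytes Ftl1 was 15177 CPM in mouse 33 (next 10600), a sum of 18 cells, and Slc40a1 was 5.76 CPM in mouse 17 with the others at 0.

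Slc40a1 was 56.7 CPM in the distal normal macrophages of mouse 17 and 0 in the other 5 sums, and 9.12 CPM in the relapse-free macrophages of mouse 7 with the others at 0. Relapse-free macrophage Ftl1 was low in mouse 7, at 13696 CPM (next 16023). Hmox1 was 79.8 CPM in the relapse-free monocytes of mouse 11 (next 36.4) and 88.2 CPM in the distal normal neutrophils of mouse 37 (next 39.6).

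Among cells outside the sums, 336 cells labelled erythrocytes from 18 mice held 167 CPM of Slc40a1 (67 UMIs), 17.5 CPM of Hmox1 and 84.8 CPM of Slc11a1.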

How the results depend on the processing

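Under the alternatives, 99 values of counts and ratio tests stayed, 14 moved and 2 became weaker, and 410 values of single genes stayed, 15 became stronger, 4 weaker and 10 reversed. The number of members called was 2 under DESeq2 in control and Pre-MET monocytes (edgeR 0), 1 in margin and core neutrophils (0) and 1 in primary tumor and core monocytes (0), where DESeq2 called 5.33%, 3.70% and 4.36% of all genes. Within subpopulations it was 2 under DESeq2 (0), in fits in which DESeq2 called 1.42% and 4.26% of all genes. Without the filter it was 2 in distal normal and metastasis monocytes (1 with it), where 322 of 22399 genes were called, and 5 in macrophages (2), where 461 of 17180 were called. In margin and core macrophages it was 1 without the filter (0), where Slc40a1 had edgeR adjusted p = 0.0022 as 1 of 17 genes called. With batch as a term it was 4 in distal normal and metastasis macrophages (2), where 173 of 1289 genes were called, and 0 in primary tumor and core macrophages (2). With the mouse as a replicate block it was 4 in distal normal and metastasis macrophages (2), where 120 of 762 genes were called, and 1 in margin and core monocytes (0), and no other member's call changed. With look-alike rows added it was 1 in primary tumor and core monocytes (0, with 17 of 1825 genes called). With cells of at least 1000 UMIs, Hmox1 lost its call in primary tumor and core macrophages and Ftl1 kept it. Leaving out each mouse gave 1 to 2 members called in that comparison: without mouse 10, Hmox1 had edgeR adjusted p = 0.052. The neutrophil Fth1 to Ftl1 difference was 0.33 with at least 20 cells (adjusted p = 0.063) and 0.51 with look-alike rows (adjusted p = 0.094). The cause of these shifts was not tested.

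Reversed differences were not called in either fit: for control and Pre-MET neutrophils, Ftl1 at 0.21 without the filter, and Fth1 at -0.051 to 0.44 leaving out each mouse; for distal normal and metastasis neutrophils, Slc40a1 at 0.071 with cells of at least 1000 UMIs, and Ftl1 at 0.012 with batch and 0.081 with the mouse block; for margin and core macrophages, Slc11a1 at 0.40 with batch and -0.48 to 0.31 leaving out each mouse; for margin and core neutrophils, Ftl1 at -0.0085 to 0.37; for Neut_Ptgs2, Ftl1 at -0.060 under DESeq2; and the monocyte minus neutrophil difference for Hmox1 at -0.023 with a pseudocount of 1 CPM. Hmox1 in distal normal and metastasis macrophages moved from 3.10 to 10.58 with cells of at least 1000 UMIs and 4.80 with batch, and Slc11a1 from 2.13 to 3.87 with such cells.

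Counts of all genes called moved by over 1.5 times in many fits. Without the filter they were 322 in distal normal and metastasis monocytes (31 with it), 461 in macrophages (123), 91 and 17 in margin and core monocytes and macrophages (0 each), and 320 and 258 in primary tumor and core monocytes and macrophages (27 and 98). DESeq2 called 51 (31) in distal normal and metastasis monocytes, 12, 26 and 8 (0, 0 and 1) in margin and core monocytes, macrophages and neutrophils, and 80 and 172 (27 and 98) in primary tumor and core monocytes and macrophages. With batch as a term they were 82 (31) in distal normal and metastasis monocytes, and 0 and 2 (27 and 98) in primary tumor and core monocytes and macrophages. The mouse block gave 79 (31) and 58 (0) in the monocyte comparisons. Leaving out 1 mouse gave 87 to 138 in control and Pre-MET monocytes (214), 0 without mouse 10 in primary tumor and core monocytes (27) and 45 in macrophages (98). Depth limits Hmox1, Slc40a1 and Slc11a1: in distal normal macrophages 30, 2 and 10 UMIs were counted, against 2698 of Fth1.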
